A study of Caenorhabditis elegans with 20 samples.

Results

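Heparan sulfate proteoglycans and the enzymes that build and modify their chains were followed through the first sex difference of the *C. elegans* gonad. The set has 9 genes of the 19861 named genes in the authors' deposited tables. It holds the core proteins *gpn-1* and *sdn-1*, the chain polymerization genes *rib-1* and *rib-2*, the modification enzymes *hst-1*, *hse-5*, *hst-2* and *hst-6*, and the chondroitin synthase *sqv-5*. The genes were matched by symbol, and they were chosen by name together with 1 measured value, the higher level of *gpn-1* in hermaphrodite than in male whole animals at 15 hr. That value is therefore given as a description. *sqv-5* makes chondroitin, a related glycosaminoglycan, so the set is not made up of heparan sulfate genes alone.

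Heparan sulfate is a long, negatively charged sugar chain that is built in the Golgi on a core protein, through a short linker it shares with chondroitin. EXT-family enzymes extend the chain, an N-deacetylase/N-sulfotransferase prepares it for further change, an epimerase flips some of its uronic acids, and O-sulfotransferases add sulfate at defined positions. Glypicans are tethered to the cell surface by a lipid anchor and syndecans span the membrane, and both hold signaling proteins and guidance cues near cells. In *C. elegans* these genes are best known for guiding axons and migrating cells.

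RNA was sequenced from 20 samples in 8 groups: gonadal cells and whole animals of each sex, after 15 hr and after 9.5 hr of feeding, with 2 samples in each group at 15 hr and 3 at 9.5 hr. Gonadal cells were the somatic gonad precursors Z1 and Z4 at 9.5 hr and their daughters at 15 hr, sorted live for Venus, a fluorescent protein driven by the *ehn-3a* promoter in the array *rdIs4*. By the study's scheme, whole-animal samples were dissociated cells that were not sorted, so they include the gonadal cells. Those of males at both times and of hermaphrodites at 15 hr were set aside before sorting and are not independent of the sorted samples. For hermaphrodites at 9.5 hr the whole-animal samples were of a different strain and no part of the sorted samples. Male groups were DZ683 larvae, with *tra-2(ar221)*, *xol-1(y9)* and *rdIs4*, which are XX animals masculinized at the restrictive temperature and not XO males. Hermaphrodite gonadal cells at both times and hermaphrodite whole animals at 15 hr were DZ685, with *xol-1(y9)* and *rdIs4*. Hermaphrodite whole animals at 9.5 hr came from another strain, which carried *xol-1(y9)* without *rdIs4*, so at 9.5 hr the array cannot be told apart from sex between the whole animals, nor from tissue in the hermaphrodite ratios of gonadal cells over whole animals. The same holds for time in hermaphrodite whole animals. All 8 groups thus share *xol-1(y9)*, and all larvae were kept at the restrictive temperature. In the comparisons between sexes, the sex and the *tra-2* allele cannot be told apart.

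The tables give 1 FPKM value per gene and group, the number of fragments scaled to transcript length and to mapped reads, pooled by the authors over the samples of the group. No spread between samples stands beside these values and no test was made. The depth per sample is unknown. A difference is given as the log2 ratio of FPKM + 1 and described as past the fold where it was at least 2-fold, among genes with a mean of at least 1 FPKM over the 4 groups of a time. These were 14436 genes at 15 hr and 15822 at 9.5 hr. All 9 genes passed this limit at 15 hr. At 9.5 hr 8 passed and *gpn-1* did not.

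The sorted cells were checked against marker lists. The summed FPKM of 6 somatic gonad precursor genes in gonadal cells was 427% (males) and 238% (hermaphrodites) of that in whole animals at 15 hr, and 702% and 587% at 9.5 hr. Of those 6 genes, 5 were higher in gonadal cells in males at both times and in hermaphrodites at 9.5 hr, but in hermaphrodites at 15 hr only 3 were. The endogenous *ehn-3* gene, whose promoter marked the sorted cells, was then at 2.08 FPKM in gonadal cells of males and 0.287 FPKM in those of hermaphrodites, against 0.261 FPKM in whole males and 0.592 FPKM in whole hermaphrodites. *hnd-1* was listed at 0 in male gonadal cells at 15 hr and was at most 2.30 FPKM in every group. Markers of other cells were lower but present: the neuron list of 12 genes stood between 22.03% and 33.1% of its whole-animal sum, and the 8 body wall muscle genes between 19.8% and 41.4%. The 8 hypodermis genes stood at 60.4% for males and 35.4% for hermaphrodites at 15 hr, and the 3 coelomocyte genes between 4.17% and 12.7% over the 4 comparisons. The range over the 4 comparisons was 19.5% to 35.9% for 6 germline genes, 22.2% to 41.1% for 8 intestine genes and 20.5% to 45.5% for the 4 of 6 pharynx genes that the tables list. The 45.5% was that of hermaphrodites at 15 hr, where *pha-4* was at 159 FPKM in gonadal cells against 80.1 FPKM in whole animals. The other 3 pharynx genes were lower in gonadal cells there. The part of such cells in the gonadal ratios of the set was not tested. In cell populations of this kind, fewer expressing cells and less RNA per cell cannot be told apart.

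Of the 9 genes 4 lie on the X chromosome (*gpn-1*, *sdn-1*, *hst-2* and *hst-6*), 2 on III (*hse-5* and *rib-2*), 2 on IV (*hst-1* and *rib-1*) and 1 on I (*sqv-5*). Coordinates are 1-based on ce10. The levels of 4 members may have a limit from neighbouring genes. The deposited tables give *rib-2* the same interval as *ran-1*, a Ran GTPase gene on the opposite strand that was far more abundant, between 233 and 385 FPKM, and they give *rib-1* the same interval as F12F6.2, listed between 6.64 and 29.2 FPKM. In the WBcel235 annotation the genes *rib-2* and *ran-1* overlap by 95 bases, whereas *hst-6* overlaps the opposite-strand gene *rga-8* by 2959 bases. *rga-8* is listed in the tables as Y34B4A.8, at 48.1 and 59.9 FPKM in male and hermaphrodite gonadal cells and 33.7 and 34.1 FPKM in male and hermaphrodite whole animals at 15 hr. *sqv-5* overlaps T24D1.7, on its own strand, by 72 bases in that annotation, and no value was matched to that name. Among the deposited intervals neither *hst-6* nor *sqv-5* was found to overlap another gene. Whether the counting used strand is not given in the sources used here, so reads of such pairs may not have been separated.

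*gpn-1* encodes a glypican of 543 residues (chromosome X, 15681658 to 15687331). At 15 hr its level was 35.1 FPKM in gonadal cells of males and 124 FPKM in those of hermaphrodites, against 1.42 FPKM in whole males and 9.61 FPKM in whole hermaphrodites. At 9.5 hr it was 0.481 FPKM in gonadal cells of males and 0.145 FPKM in those of hermaphrodites, against 1.17 FPKM in whole males and 1.69 FPKM in whole hermaphrodites. The glypican transcript was thus barely listed in Z1 and Z4 of either sex and abundant in the daughter cells at 15 hr, most of all in hermaphrodites.

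The FPKM of *gpn-1* in gonadal cells at 15 hr was 24.8-fold that of whole animals in males and 12.9-fold in hermaphrodites. On the scale of FPKM + 1, which understates the change of a gene with low levels, the log2 ratio was 3.90 (14.9-fold) in males, and 47 other genes of the 14436 tested had a ratio at least as high. The log2 ratio in hermaphrodites was 3.56 (11.8-fold), which 54 other genes matched or exceeded. Both ratios are taken over the 15 hr whole-animal levels that entered the choice of *gpn-1*. The ratios, their ranks and the difference between the sexes in them are therefore given as a description. The male whole-animal level was 4.04% of the male gonadal level, and the hermaphrodite whole-animal level was 7.76% of the hermaphrodite gonadal level. At 9.5 hr the log2 ratios were -0.55 in males and -1.23 in hermaphrodites, with all 4 levels at most 1.69 FPKM. The number of reads behind such levels is unknown, and no direction was read from these ratios.

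Between the sexes, *gpn-1* at 15 hr was lower in male than in hermaphrodite gonadal cells by a factor of 3.53 in FPKM and 3.46 in FPKM + 1, a log2 ratio of -1.79, and 202 other genes had a ratio as low. In whole animals, the value that led to its choice, it was lower in males by a factor of 6.77 in FPKM and 4.39 in FPKM + 1, a log2 ratio of -2.13, which 54 other genes matched. Since the gene was chosen for the whole-animal value and whole animals include the gonadal cells, that value is no support for the gonadal one. At 9.5 hr the log2 ratio of males over hermaphrodites was 0.37 for gonadal cells and -0.31 for whole animals, at levels too low to read.

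Markers of other cells differed between the sexes in these gonadal samples as well. At 15 hr the summed FPKM in male gonadal cells was 194% of that in hermaphrodite gonadal cells for the somatic gonad list, 186% for hypodermis, 200.2% for body wall muscle, 143% for neurons, 150.1% for germline, 135% for intestine and 209% for coelomocytes. All these sums were higher in males, the opposite of *gpn-1*. The 4 pharynx genes in the tables went the same way as *gpn-1*, at 104.3 FPKM in gonadal cells of males and 240 FPKM in those of hermaphrodites, with 1 of the 4 (*myo-2*) higher in males. Most of that difference lay in *pha-4*, at 16.1 FPKM in gonadal cells of males and 159 FPKM in those of hermaphrodites, whereas the muscle genes *tnc-2* and *tni-4* were at 23.9 and 37.5 FPKM in male and 24.2 and 40.4 FPKM in hermaphrodite gonadal cells. Whole-animal levels of *pha-4* at 15 hr were 52.1 FPKM in males and 80.1 FPKM in hermaphrodites. The part of pharyngeal cells in the *gpn-1* difference was not tested.

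**Figure D1:**
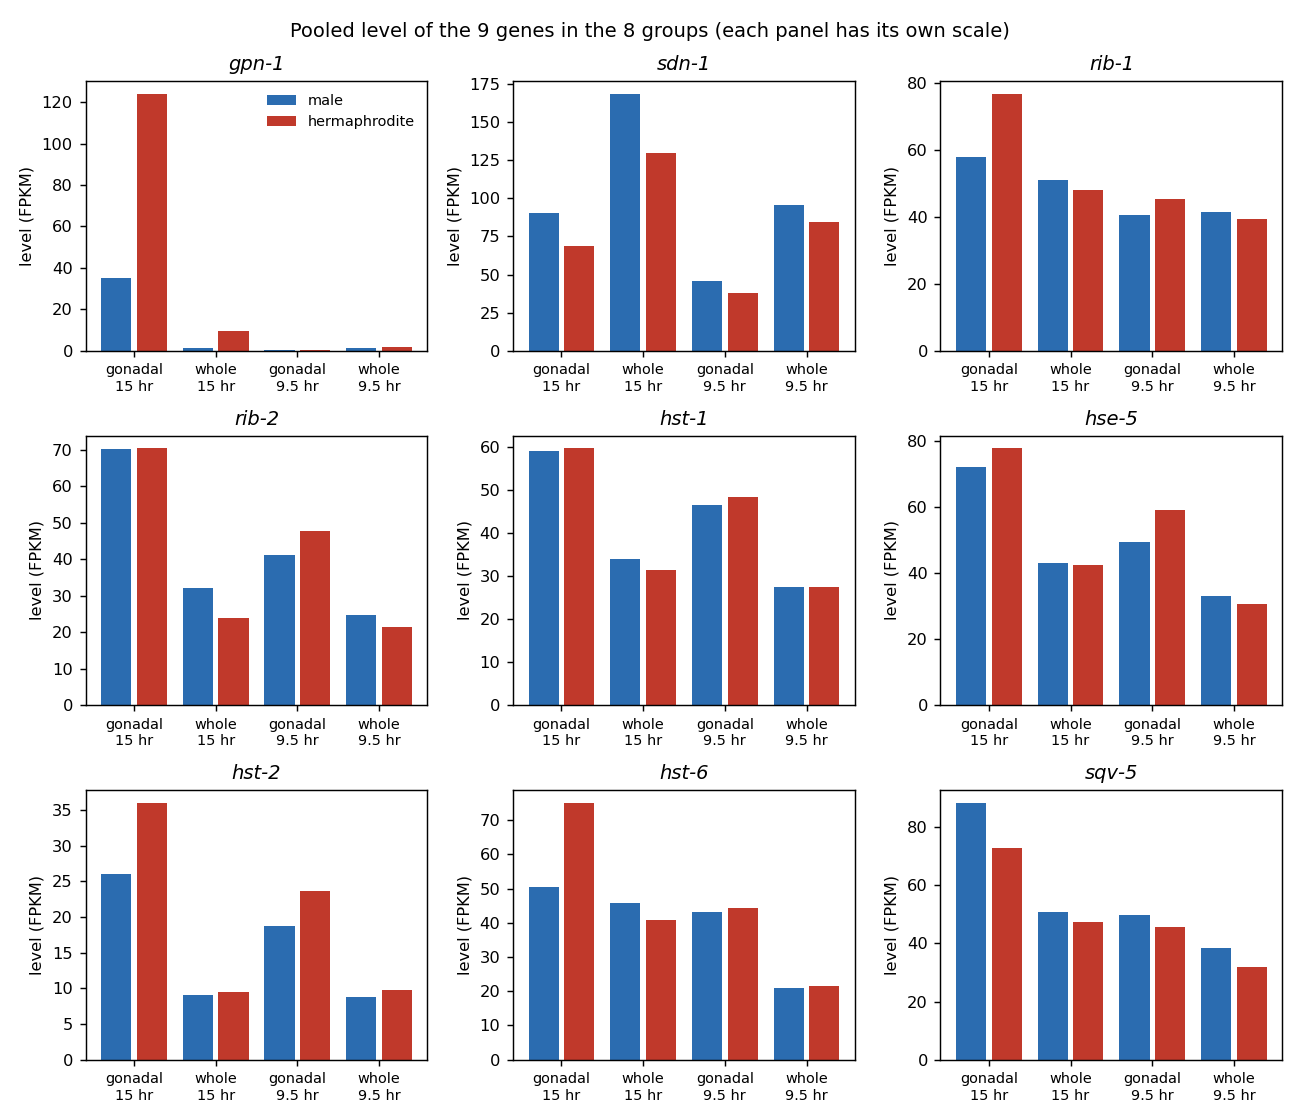
Pooled FPKM of each of the 9 genes (vertical axis, linear, from 0, with its own scale in each panel) in gonadal cells and whole animals at 15 hr and 9.5 hr; blue bars are males, red bars hermaphrodites, and each bar is the authors' 1 pooled value. *gpn-1* stands at 35.1 and 124 FPKM in male and hermaphrodite gonadal cells at 15 hr and at most 9.61 FPKM in the other 6 groups, and *sdn-1* is lower in gonadal cells than in whole animals in each pair.

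Genes were ranked by the likeness of their profiles to that of *gpn-1* over the 8 groups. Likeness was the Euclidean distance between log2(FPKM + 1) profiles, each centred on its own mean, over the 14158 genes with a mean of at least 1 FPKM at both times. *gpn-1* itself failed that limit at 9.5 hr, so genes as low as it at 9.5 hr could not enter the ranking. The 5 nearest were *mnm-2* at a distance of 1.52, *nhr-67* at 2.07, C39B5.2 at 2.48, *clh-3* at 2.64 and *ham-1* at 2.91. *mnm-2* encodes a zinc-finger protein and was at 213 FPKM in gonadal cells of males and 264 FPKM in those of hermaphrodites at 15 hr, against 13.9 and 35.1 FPKM in male and hermaphrodite whole animals. *nhr-67*, a nuclear receptor gene known for its role in the anchor cell of the hermaphrodite gonad, was at 61.6 FPKM in gonadal cells of males and 146 FPKM in those of hermaphrodites at 15 hr. Its whole-animal levels then were 8.21 FPKM in males and 13.8 FPKM in hermaphrodites. *clh-3*, a chloride channel gene, was at 12.4 FPKM in gonadal cells of males and 64.2 FPKM in those of hermaphrodites at 15 hr. The 5 were chosen for their likeness over these same groups, so that a pattern shared with *gpn-1* was fixed by the choice.

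*sdn-1*, the syndecan gene (chromosome X, 10589718 to 10593272, 288 residues), had the opposite distribution. At 15 hr it was at 90.4 FPKM in gonadal cells of males and 68.7 FPKM in those of hermaphrodites, against 168 FPKM in whole males and 130 FPKM in whole hermaphrodites. At 9.5 hr it was at 45.6 FPKM in gonadal cells of males and 37.7 FPKM in those of hermaphrodites, against 95.9 FPKM in whole males and 84.3 FPKM in whole hermaphrodites. Gonadal cells held less than whole animals in each of the 4 pairs, and males more than hermaphrodites in each of the 4 pairs. The log2 ratios of gonadal cells over whole animals lay close together, at -0.89 for males and -0.91 for hermaphrodites at 15 hr, and -1.06 and -1.14 at 9.5 hr. They were on either side of the 2-fold line but not by much, and *sdn-1* had the highest whole-animal level of the set in both sexes at both times. The log2 ratios of males over hermaphrodites were 0.39 for gonadal cells and 0.37 for whole animals at 15 hr, and 0.27 and 0.18 at 9.5 hr.

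The transcripts of the 2 core proteins thus differed in where they were most abundant. In hermaphrodite gonadal cells at 15 hr the *gpn-1* level per unit of transcript length was above the *sdn-1* level, whereas in the other 7 groups *sdn-1* was the higher of the pair.

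The polymerization genes *rib-1* and *rib-2* encode EXT-family proteins of 382 and 814 residues that extend the heparan sulfate chain. *rib-2* (interval shared with *ran-1*, chromosome III, 10742711 to 10747631) was at 70.0 FPKM in gonadal cells of males and 70.3 FPKM in those of hermaphrodites at 15 hr, against 32.1 FPKM in whole males and 23.8 FPKM in whole hermaphrodites. At 9.5 hr it was at 41.2 FPKM in gonadal cells of males and 47.7 FPKM in those of hermaphrodites, against 24.7 FPKM in whole males and 21.4 FPKM in whole hermaphrodites. It was higher in gonadal cells in all 4 pairs, with log2 ratios of 1.10 for males and 1.53 for hermaphrodites at 15 hr and 0.71 and 1.12 at 9.5 hr. *ran-1*, with which it shares an interval, was at 385 FPKM in gonadal cells of males and 260.4 FPKM in those of hermaphrodites at 15 hr, against 240.1 FPKM in whole males and 233 FPKM in whole hermaphrodites. *rib-2* thus had a larger ratio in hermaphrodites, and *ran-1* in males.

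*rib-1* (interval shared with F12F6.2, chromosome IV, 11578734 to 11583897) differed less between the cell populations. At 15 hr it was at 57.9 FPKM in gonadal cells of males and 76.8 FPKM in those of hermaphrodites, against 50.9 FPKM in whole males and 48.1 FPKM in whole hermaphrodites. At 9.5 hr all its levels lay between 39.5 and 45.3 FPKM. The log2 ratios of gonadal cells over whole animals were 0.18 for males and 0.66 for hermaphrodites at 15 hr, and -0.03 and 0.19 at 9.5 hr. Hermaphrodite gonadal cells at 15 hr were the 1 group that stood above the others for this gene.

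*hst-1*, the N-deacetylase/N-sulfotransferase (chromosome IV, 8688260 to 8691500, 852 residues), and *hse-5*, the epimerase that acts on the chain (chromosome III, 4345311 to 4350051, 616 residues), had the most similar profiles of any pair in the set, at a distance of 0.293. At 15 hr *hst-1* was at 59.1 FPKM in gonadal cells of males and 59.8 FPKM in those of hermaphrodites, against 34.1 FPKM in whole males and 31.4 FPKM in whole hermaphrodites. At 9.5 hr it was at 46.6 FPKM in gonadal cells of males and 48.6 FPKM in those of hermaphrodites and 27.6 FPKM in whole animals of either sex. The sexes were thus within a log2 ratio of 0.11 of each other in all 4 pairs, and its gonadal levels were above its whole-animal levels throughout.

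At 15 hr *hse-5* was at 72.0 FPKM in gonadal cells of males and 77.7 FPKM in those of hermaphrodites, against 42.9 FPKM in whole males and 42.3 FPKM in whole hermaphrodites. The levels at 9.5 hr were 49.4 FPKM in gonadal cells of males and 59.0 FPKM in those of hermaphrodites, against 32.98 FPKM in whole males and 30.7 FPKM in whole hermaphrodites. Log2 ratios of gonadal cells over whole animals lay between 0.73 and 0.91 for *hst-1* and between 0.57 and 0.92 for *hse-5*. None of these 8 ratios was past the fold. After centring on the median of all genes, those of hermaphrodites at 9.5 hr were, at 1.09 for *hst-1* and 1.22 for *hse-5*.

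*hst-2*, the 2-O-sulfotransferase (chromosome X, 11204083 to 11207026, 324 residues), was the gene with the largest gonadal ratios after *gpn-1* at 15 hr. It was then at 25.99 FPKM in gonadal cells of males and 36.0 FPKM in those of hermaphrodites, against 9.03 FPKM in whole males and 9.54 FPKM in whole hermaphrodites. Its levels at 9.5 hr were 18.7 FPKM in gonadal cells of males and 23.7 FPKM in those of hermaphrodites, against 8.76 FPKM in whole males and 9.72 FPKM in whole hermaphrodites. The log2 ratios were 1.43 for males and 1.81 for hermaphrodites at 15 hr and 1.01 and 1.20 at 9.5 hr, past the fold in all 4 pairs. The calls at 9.5 hr depended on the settings: with a pseudocount of 5 FPKM the ratios were 0.78 in males and 0.96 in hermaphrodites, and rescaling to a common sum gave 0.99 in males. Even so it had the lowest level of the set apart from *gpn-1* in all 8 groups. Its levels were below those of hermaphrodites in male gonadal cells at both times, with log2 ratios of -0.46 at 15 hr and -0.33 at 9.5 hr.

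*hst-6*, the 6-O-sulfotransferase (chromosome X, 5275535 to 5278360, 362 residues), stood apart in male gonadal cells at 15 hr. It was at 50.4 FPKM there and at 75.02 FPKM in hermaphrodite gonadal cells, against 45.9 FPKM in whole males and 40.7 FPKM in whole hermaphrodites. The levels at 9.5 hr were 43.2 FPKM in gonadal cells of males and 44.2 FPKM in those of hermaphrodites, against 20.9 FPKM in whole males and 21.4 FPKM in whole hermaphrodites. The log2 ratio of gonadal cells over whole animals was 0.13 in males at 15 hr, beside 0.87 in hermaphrodites at 15 hr and 1.01 in both sexes at 9.5 hr. The difference of -0.73 between the male and the hermaphrodite ratio at 15 hr was matched or exceeded in size by 27.6% of the 14436 genes. Its opposite-strand neighbour *rga-8* was at 31.5 FPKM in gonadal cells of males and 35.2 FPKM in those of hermaphrodites at 9.5 hr, against 22.03 FPKM in whole males and 21.5 FPKM in whole hermaphrodites. *hst-6* and *rga-8* were thus both higher in gonadal cells in all 4 pairs, although the male ratio of *hst-6* at 15 hr was -0.03 after rescaling the groups to a common sum. Which of these genes, found to overlap in WBcel235 but not in the deposited intervals, the reads came from was not tested.

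*sqv-5*, the chondroitin synthase (chromosome I, 9947830 to 9953374, 736 residues), was at 88.4 FPKM in gonadal cells of males and 72.8 FPKM in those of hermaphrodites at 15 hr, against 50.8 FPKM in whole males and 47.5 FPKM in whole hermaphrodites. Its levels at 9.5 hr were 49.9 FPKM in gonadal cells of males and 45.7 FPKM in those of hermaphrodites, against 38.4 FPKM in whole males and 32.0 FPKM in whole hermaphrodites. Males were above hermaphrodites in each of the 4 pairs, by log2 ratios between 0.09 and 0.28. Its gonadal ratios, between 0.37 and 0.79, were below those of *hst-2* in each pair.

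Over the set, gonadal cells held the higher level in most pairs. In males at 15 hr, 3 of 9 genes (*gpn-1*, *hst-2* and *rib-2*) had a gonadal level at least 2-fold above that of whole animals, where 16.6% of all genes were, and 0 were 2-fold lower, where 34.3% were. In hermaphrodites at 15 hr the same 3 of 9 were higher, beside 19.9% of all genes, and 0 lower, beside 37.7%. In males at 9.5 hr, 2 of 8 (*hst-2* and *hst-6*) were higher, beside 11.4% of all genes, and 1 (*sdn-1*) lower, beside 31.6%. In hermaphrodites at 9.5 hr, 3 of 8 (*hst-2*, *hst-6* and *rib-2*) were higher, beside 10.7%, and *sdn-1* lower, beside 37.4%. The calls of *hst-2* and *hst-6* in males at 9.5 hr did not hold after rescaling to a common sum, at 0.99 and 0.97, nor did that of *rib-2* in males at 15 hr, at 0.94. With a pseudocount of 5 FPKM none of the 3 higher genes in hermaphrodites at 9.5 hr stayed past the fold, with *hst-6* at 0.90 and *rib-2* just under 1. The lower calls of *sdn-1* at 9.5 hr did not hold after centring on the median, at -0.87 in males and -0.84 in hermaphrodites. With a pseudocount of 5 FPKM *sdn-1* was at -0.99 in males at 9.5 hr. In males at 15 hr *sdn-1* was past the fold after rescaling, at -1.06. The counts at 15 hr include *gpn-1*, whose whole-animal levels at that time entered its choice. A single gene weighs heavily in so small a set, and these counts are a description of it.

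The median log2 ratio of the set was 0.78 in males and 0.87 in hermaphrodites at 15 hr, beside -0.05 and -0.09 over all genes tested, and 0.64 and 0.86 at 9.5 hr, beside -0.19 and -0.30. The quartiles of all genes at 15 hr ran between -1.53 and 0.74 in males and between -1.90 and 0.85 in hermaphrodites. The set's median was close to the upper quartile in both. The sign of the all-gene medians depended on the filter. Among genes with a mean of at least 5 FPKM, those for 15 hr were 0.18 (males) and 0.23 (hermaphrodites). Those for 9.5 hr were 0.12 (males) and 0.13 (hermaphrodites). The set's medians were above these too, but by less than above the medians at the limit of 1 FPKM. Of the 9 genes 6 (*hse-5*, *hst-1*, *hst-2*, *hst-6*, *rib-2* and *sqv-5*) were higher in gonadal cells in all 4 pairs, as were 35.3% of 14158 genes that passed the limit at both times. Rescaling to a common sum turned *hst-6* in males at 15 hr to the other side of 0, at -0.03. *rib-1* was higher in 3 of 4, and in the fourth, males at 9.5 hr, it had a ratio of 0.16 after centring on the median of all genes. *gpn-1* was higher in 2 and *sdn-1* in 0. In level, the median of the 9 genes was 59.1 FPKM in gonadal cells of males and 72.8 FPKM in those of hermaphrodites at 15 hr, far above the median of all named genes there, 4.27 and 3.49 FPKM.

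**Figure D2:**
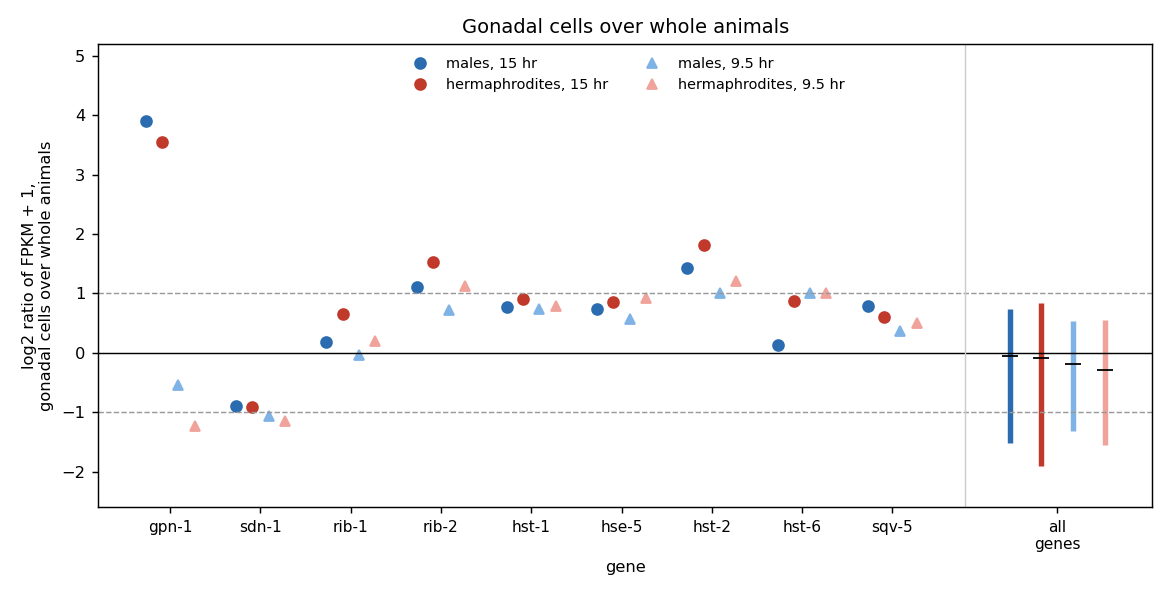
Log2 ratio of FPKM + 1 in gonadal cells over whole animals (vertical axis) for the 9 genes, with circles for 15 hr, triangles for 9.5 hr, blue for males and red for hermaphrodites; the bars at the right span the quartiles of all genes tested with a black tick at their median, and dashed lines mark 2-fold. *gpn-1* reaches 3.90 and 3.56 in males and hermaphrodites at 15 hr, *hst-2* lies past the upper line in all 4 pairs, at 9.5 hr by little, and *sdn-1* lies between -0.89 and -1.14.

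Between the sexes only *gpn-1* was past the fold. In gonadal cells at 15 hr, 1 of 9 genes was at least 2-fold lower in males than in hermaphrodites, where 4.43% of all genes were, and 0 were higher, where 8.46% were. In whole animals at 15 hr, 1 of 9 was lower, beside 3.13% of all genes, a count that the choice of *gpn-1* fixed, and 0 were higher, beside 1.41%. At 9.5 hr 0 of 8 were past the fold in gonadal cells, beside 3.39% of all genes higher in males and 2.28% lower. In whole animals at 9.5 hr it was again 0 of 8, beside 2.04% higher and 3.73% lower. The largest log2 ratios of the other 8 genes in either direction were -0.57 for *hst-6* in gonadal cells and 0.42 for *rib-2* in whole animals, both at 15 hr.

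The direction in gonadal cells at 15 hr divided the set, with 2 of 9 genes higher in males, beside 56.4% of all genes. *sdn-1* and *sqv-5* were higher in males, by log2 ratios of 0.39 and 0.28. *gpn-1*, *hst-6*, *hst-2* and *rib-1* were lower in males, the last at -0.40, while *hse-5* at -0.11, *hst-1* at -0.02 and *rib-2* at -0.01 were nearly equal. Across all genes the median was 0.09 and the quartiles were -0.27 and 0.49, so that *hst-6*, *hst-2*, *rib-1* and *gpn-1* lay below the lower quartile and no member lay above the upper one. In whole animals at 15 hr 7 of 9 were higher in males, beside 52.3% of all genes, with a median of 0.09 for the set and 0.01 for all genes.

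**Figure D3:**
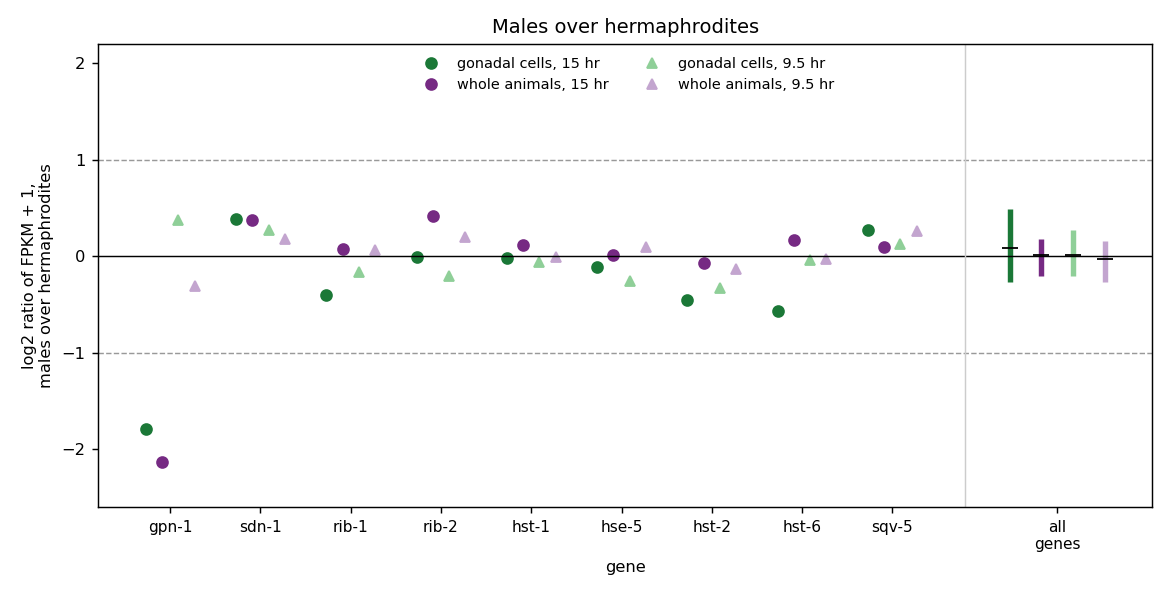
Log2 ratio of FPKM + 1 in males over hermaphrodites (vertical axis) for the 9 genes, with green for gonadal cells, purple for whole animals, circles for 15 hr and triangles for 9.5 hr; the bars at the right span the quartiles of all genes tested with a black tick at their median, and dashed lines mark 2-fold. Only *gpn-1* passes a dashed line, at -1.79 for gonadal cells and -2.13 for whole animals at 15 hr.

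The 15 hr and 9.5 hr tables were normalized separately, and levels at the 2 times are only set side by side. The median log2 ratio of 15 hr over 9.5 hr among 15213 genes with a mean of at least 1 FPKM over all 8 groups was 0.01 in gonadal cells of each sex, -0.05 in male and -0.09 in hermaphrodite whole animals. The set's medians were 0.53 in male and 0.66 in hermaphrodite gonadal cells, and 0.37 in male and 0.45 in hermaphrodite whole animals. All 9 genes were higher at 15 hr in gonadal cells of both sexes, beside 50.7% of all genes in males and 50.8% in hermaphrodites. In male whole animals all 9 were higher as well, beside 46.0% of all genes, and in hermaphrodite whole animals 8 were, beside 42.3%, with *hst-2* at -0.02. At least 2-fold higher was 1 of 9 in each comparison: *gpn-1* in gonadal cells, beside 9.77% of all genes in males and 7.03% in hermaphrodites, *hst-6* in male whole animals, beside 7.98%, and *gpn-1* in hermaphrodite whole animals, beside 8.26%. The last of these counts rests on the 15 hr whole-animal level that entered the choice of *gpn-1*, and is given only as a description. *gpn-1* failed the limit at 9.5 hr and entered this comparison only through its 15 hr levels. The filter thus favored a higher level at 15 hr, and all counts of *gpn-1* here are only a description. None of the 9 genes was 2-fold lower, where 11.6% of all genes were in male and 13.7% in hermaphrodite gonadal cells.

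In gonadal cells *gpn-1* had the largest ratio of the set, 4.61 in males and 6.77 in hermaphrodites, where 38 and 3 other genes were as high. These ratios rest on 9.5 hr levels of 0.481 FPKM in males and 0.145 FPKM in hermaphrodites, too low to read. *gpn-1* was also ranked only because of its 15 hr levels, so the ratios and ranks are a description. In whole animals the ratio of *gpn-1* was 0.16 in males and 1.98 in hermaphrodites, both from 15 hr levels that entered its choice. Leaving *gpn-1* out, the ratios ran between 0.22 for *hst-6* and 0.97 for *sdn-1* in male gonadal cells and between 0.30 for *hst-1* and 0.85 for *sdn-1* in hermaphrodite gonadal cells. *hst-6* was higher at 15 hr by 1.10 in male and 0.90 in hermaphrodite whole animals, and by 0.75 in hermaphrodite but 0.22 in male gonadal cells.

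The other genes of glycosaminoglycan biology were a list of 26, all of which passed the limit at both times. In males at 15 hr 3 of 26 were at least 2-fold higher in gonadal cells (11.5%, beside 16.6% of all genes) and 10 lower (38.5%, beside 34.3%). In hermaphrodites at 15 hr 1 was higher (3.85%, beside 19.9%) and 12 lower (46.2%, beside 37.7%). In males at 9.5 hr 2 were higher (7.69%, beside 11.4%) and 10 lower (38.5%, beside 31.6%), and in hermaphrodites 3 were higher (11.5%, beside 10.7%) and 11 lower (42.3%, beside 37.4%). The shares of lower genes were thus near those of all genes. The 12 lower genes in hermaphrodites at 15 hr were core protein genes of either chain, the 3 other modification genes and *kal-1*. None of the linker or donor supply genes was 2-fold lower in any of the 4 pairs.

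Among the other heparan sulfate core proteins, *unc-52* (perlecan) and *agr-1* (agrin), both of basement membranes, were past the fold and lower in gonadal cells in all 4 pairs. *agr-1* was at 3.50 FPKM in gonadal cells of males and 1.78 FPKM in those of hermaphrodites at 15 hr, against 33.3 FPKM in whole males and 32.7 FPKM in whole hermaphrodites. The second glypican gene, *lon-2*, was at 8.30 FPKM in gonadal cells of males and 5.17 FPKM in those of hermaphrodites at 15 hr, against 16.2 FPKM in whole males and 13.04 FPKM in whole hermaphrodites. The glypicans thus had opposite gonadal ratios at that time, -0.89 in males and -1.19 in hermaphrodites for *lon-2*. *cle-1*, which encodes a collagen of type XVIII, was at 146 FPKM in gonadal cells of males and 82.0 FPKM in those of hermaphrodites at 15 hr, against 77.9 FPKM in whole males and 75.9 FPKM in whole hermaphrodites.

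The linker enzymes, which join the first sugars to the core protein, were higher in gonadal cells in both sexes at 15 hr, as were 48.6% of all genes in males and 48.1% in hermaphrodites, with log2 ratios between 0.18 for *sqv-2* in males and 1.02 for *sqv-6* in males. *sqv-8* was past the fold at 9.5 hr, with log2 ratios of 1.14 in males and 1.09 in hermaphrodites, and *sqv-3* in hermaphrodites at 1.21. Among 6 genes for sugar nucleotide and sulfate donor supply, only *pst-1*, a transporter of the sulfate donor PAPS, was past the fold, in males at 15 hr at 1.06. *pps-1*, the PAPS synthase, had a ratio below 0 in all 4 pairs, between -0.06 and -0.59.

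The remaining heparan sulfate modification genes were lower in gonadal cells. *hst-3.1*, a 3-O-sulfotransferase, was at 1.59 FPKM in gonadal cells of males and 1.22 FPKM in those of hermaphrodites at 15 hr, against 15.9 FPKM in whole males and 13.8 FPKM in whole hermaphrodites. *hst-3.2*, the other 3-O-sulfotransferase, was past the fold in all 4 pairs, at 15.6 FPKM in gonadal cells of males and 7.94 FPKM in those of hermaphrodites at 15 hr, against 72.7 FPKM in whole males and 64.2 FPKM in whole hermaphrodites. *sul-1*, a sulfatase gene, was at most 5.16 FPKM in every group. The 2-O-sulfotransferase gene *hst-2* was thus higher in gonadal cells in each pair and both 3-O-sulfotransferase genes were lower in each pair.

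*kal-1*, which encodes the heparan sulfate-binding protein anosmin, was at 25.5 FPKM in gonadal cells of males and 4.44 FPKM in those of hermaphrodites at 15 hr, a log2 ratio of 2.28 and opposite in sign to *gpn-1*. Its whole-animal levels then were 33.6 FPKM in males and 27.2 FPKM in hermaphrodites. Besides *kal-1*, only *cpg-2* at 15 hr, at 1.76 FPKM in gonadal cells of males and 0.327 FPKM in those of hermaphrodites, and *cpg-8* at 9.5 hr, at 45.0 FPKM in gonadal cells of males and 18.0 FPKM in those of hermaphrodites, were past the fold between the sexes. All 3 were higher in males, which made 2 of 26 at 15 hr, beside 8.46% of all genes, and 1 of 26 at 9.5 hr, beside 3.39%. In whole animals 0 of 26 were past the fold between the sexes at either time.

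On the chondroitin side, *mig-22*, whose product works with the synthase encoded by *sqv-5*, was past the fold and higher in gonadal cells in all 4 pairs. It was at 148 FPKM in gonadal cells of males and 135 FPKM in those of hermaphrodites at 15 hr, against 47.8 FPKM in whole males and 45.6 FPKM in whole hermaphrodites. The levels at 9.5 hr were 154 FPKM in gonadal cells of males and 121 FPKM in those of hermaphrodites, against 50.5 FPKM in whole males and 51.9 FPKM in whole hermaphrodites. The chondroitin core protein genes of the *cpg* family were mostly lower in gonadal cells, with 5 of 7 past the fold in both sexes at 15 hr. *cpg-9* had log2 ratios of -2.40 in males and -3.04 in hermaphrodites.

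**Figure D4:**
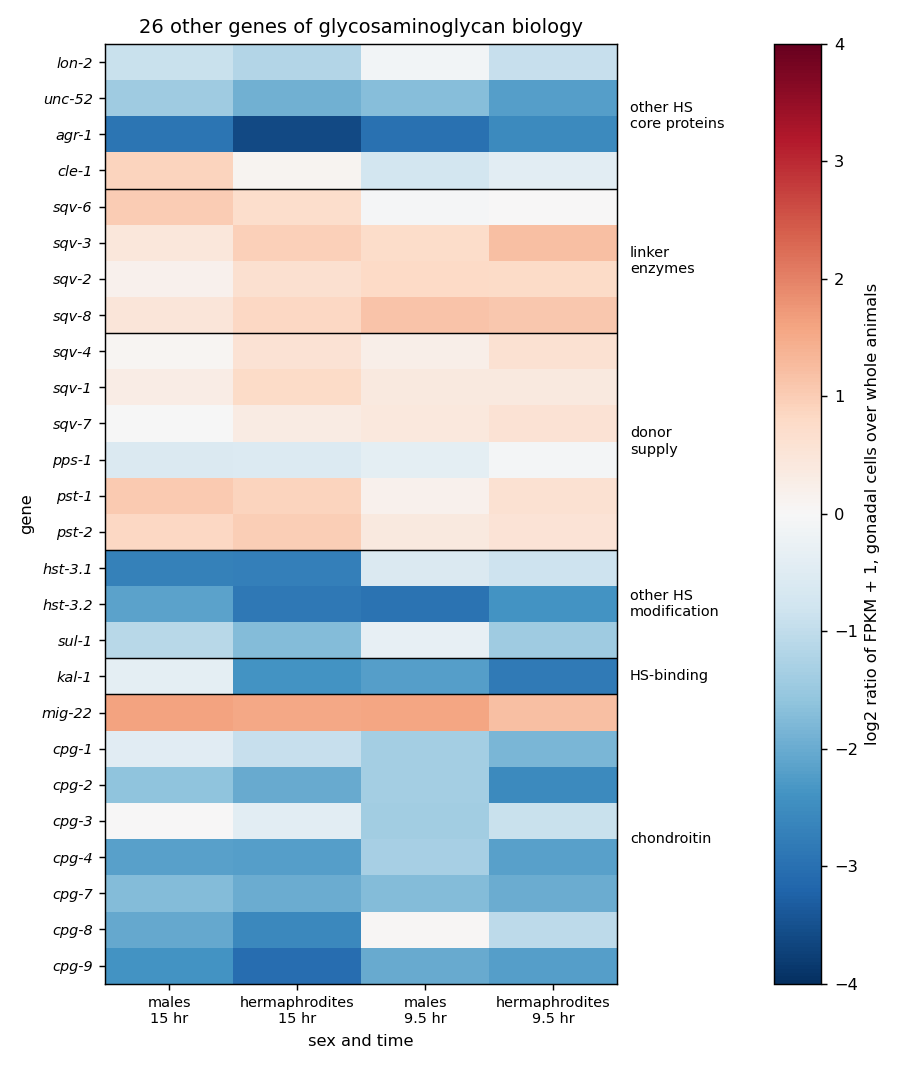
Log2 ratio of FPKM + 1 in gonadal cells over whole animals (color, red higher and blue lower in gonadal cells) for 26 other glycosaminoglycan genes (rows, grouped by role) in each sex at 15 hr and 9.5 hr (columns). *mig-22* is red in all 4 columns, whereas *agr-1*, *unc-52* and *hst-3.2* are blue in all 4.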

How the data were processed

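The authors depleted ribosomal RNA with Ribo-Zero, prepared TruSeq libraries without selection for poly-A, mapped single-end reads to ce10 (WS220) with TopHat 1.4.1 and compared groups with Cuffdiff 2.1.1, 1 run for each time. The submitters' processing notes also name CASAVA 1.8 and Picard 1.56. The deposited values are FPKM, 1 per gene and group, which Cuffdiff pooled over 2 samples at 15 hr and 3 at 9.5 hr. Neither reads nor values per sample were used here, so the depth and precision per sample are unknown. The authors' columns of log2 fold change, test statistic, p-value and q-value were not used. Unused per-sample columns numbered 0. The table's column names give strains, which were assigned to sex from the study's methods. The row without a gene name held between 0.177% and 0.293% of summed FPKM and was left out.

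Log2 ratios were computed as log2((FPKM + 1)/(FPKM + 1)) with Python 3.11.15, pandas 2.3.3 and numpy 2.4.6, among genes with a mean of at least 1 FPKM over the 4 groups of a time. The computation was tested on simulated data. Protein lengths, overlaps and the name *rga-8* came from the WBcel235 and RefSeq annotations, and no sequence was printed. Genes named are the 9 members, the 26 other glycosaminoglycan genes where informative or past 2-fold, and the 5 genes nearest to *gpn-1*. The members and the lists were chosen with earlier results of these data known. Alternatives were pseudocounts of 0.1 and 5 FPKM or none, no filter or one at 5 FPKM, a 4-fold cutoff, rescaling to a common sum and centring on the median.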

Additional observations from a re-analysis of the deposited data

How the results depend on the processing

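No paired analysis was possible because the deposited tables hold 1 pooled value per group, and for the same reason leaving out single samples was not run. Of 500 log2 ratios of members recomputed under other pseudocounts, filters and scalings, 473 stayed on their side of the 2-fold line without a marked shift, 27 moved and 0 past the fold reversed. A filter leaves the ratio of a gene as it is. The 72 ratios with no filter and the 68 with a filter at 5 FPKM therefore could not move. The number of members past the fold in the gonadal ratio at 9.5 hr was 3 in males and 4 in hermaphrodites, and with a pseudocount of 5 FPKM it was 0 and 1. Rescaling to a common sum left 1 in males at 9.5 hr, and centring on the median gave 2 in males and 5 in hermaphrodites. With a 4-fold cutoff it was 1 in each sex at 15 hr and 0 in each sex at 9.5 hr, and 0 between the sexes in gonadal cells at 15 hr. Over all 8 comparisons the total of 15 became 9 with a pseudocount of 5 FPKM and 3 with the 4-fold cutoff. Between whole animals of each sex at 15 hr, *gpn-1* had a log2 ratio of -1.19 at a pseudocount of 5 FPKM and -2.76 with none. Its male gonadal ratio at 15 hr was 2.64 and 4.63 under the same settings. Counts over all genes depended on the settings as well: between the sexes in gonadal cells at 15 hr 1862 genes were past the fold, and 3100 with a pseudocount of 0.1 FPKM, 746 with 5 FPKM and 340 with the 4-fold cutoff. Between gonadal cells and whole animals of hermaphrodites at 9.5 hr, 22.3% of the genes past the fold were higher in gonadal cells, and 38.6% after centring on the median, which was -0.30. Rescaling to a common sum moved the median gonadal ratio of all genes in males at 15 hr to -0.21, beside -0.05. Sequencing depth is unknown, and no direction was read for *gpn-1* at 9.5 hr.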
